A study of Homo sapiens with 2 samples.

Results

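Chromatin modifier and remodeler genes of 11 families were taken from A549 cells treated with paclitaxel or with its solvent. The families were the histone demethylases (KDM), the histone methyltransferases (KMT), the SET-domain proteins (SETD), the histone deacetylases (HDAC and SIRT), the histone acetyltransferases (KAT), the bromodomain proteins (BRD), the chromodomain helicases (CHD), the subunits of SWI/SNF and related remodelers (SMARC), the AT-rich interaction domain proteins (ARID) and the DNA methyltransferases (DNMT). A gene was included where its symbol began with a family name followed by a digit, or for SMARC by a letter from A to E. Its symbol alone decided, and no measured value was used. A gene so included need not have the domain or activity its family is named for. The rule found 10 of the 993 transcripts (10 of 812 genes) in the deposited expression table and 436 of the 35827 events in the deposited table of skipped exons. These events held 392 of 31197 distinct exons and 91 of 9906 gene symbols. In all, 92 genes of the families were in at least 1 of the tables, and 9 were in both.

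A549 is an established human lung adenocarcinoma line, and paclitaxel is a drug that stabilizes microtubules and disturbs the mitotic spindle. The control cells (labelled A549_control) received DMSO, and the treated cells (A549_paclitaxel) received 7.22 nM paclitaxel, both for 72 h. The study asked which transcripts and which splicing choices differ after the drug. Each condition was sequenced as 1 library of the same unmodified line, so there was no spread between replicates, no test was possible and no p-value is given. A transcript level is given in FPKM, fragments scaled by transcript length and by the number of mapped fragments, estimated by the authors. The depth of the libraries is unknown.

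Chromatin modifiers write, remove or read chemical marks on histones and DNA, and remodelers use ATP to slide or evict nucleosomes. Most work as subunits of large complexes, so that a subunit such as ARID1A or SMARCE1 helps to set where the ATPase SMARCA2 acts. Copying of DNA methylation at replication needs DNMT1 together with UHRF1, and new methylation is set by DNMT3A and DNMT3B. Many of these genes make several protein isoforms by leaving out whole exons. The SMARCA4 gene, which encodes the alternative ATPase of SWI/SNF, is known to be inactivated by mutation in A549 cells.

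The exons that separate the listed transcripts of SMARCA2 and KDM6A from their reference transcripts are shown first, because both deposited tables bear on them. MANE Select, the transcript per gene on which RefSeq and GENCODE concur, served as the reference transcript. Each of the 3 exons below was absent from the listed transcript, was listed as a skipped exon, and had a length divisible by 3. A listing gives the position of an event only. Whether the exon was skipped in these cells, or differed with paclitaxel, was not analysed. The exon is in capitals and 10 bases of each flanking intron are in lower case, written 5′ to 3′ on the strand of the gene in build hg38.
SMARCA2 exon 29 of 34, chr9:2170419-2170472, plus strand: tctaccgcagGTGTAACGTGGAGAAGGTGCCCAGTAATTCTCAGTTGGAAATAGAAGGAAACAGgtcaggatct
KDM6A exon 13 of 30, chrX:45060022-45060156, plus strand: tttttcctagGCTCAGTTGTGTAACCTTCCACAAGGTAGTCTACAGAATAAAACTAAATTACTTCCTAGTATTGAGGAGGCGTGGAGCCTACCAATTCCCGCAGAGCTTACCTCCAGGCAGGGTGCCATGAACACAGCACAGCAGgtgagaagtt
KDM6A exon 14 of 30, chrX:45060609-45060764, plus strand: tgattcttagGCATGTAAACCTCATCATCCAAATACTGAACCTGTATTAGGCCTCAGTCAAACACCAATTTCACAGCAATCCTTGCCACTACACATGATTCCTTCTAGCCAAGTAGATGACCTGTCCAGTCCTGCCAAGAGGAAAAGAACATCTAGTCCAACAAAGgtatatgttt
All 3 exons opened after AG and closed before GT, the usual splice-site bases.

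Of the 10 listed transcripts, 6 were higher in the paclitaxel library and 4 were lower. The higher ones came from both SWI/SNF and demethylase genes: SMARCA2, SMARCE1 and ARID1A, KDM6A and KDM7A, and the acetyltransferase KAT6B. The lower ones came from both listed DNA methyltransferases, DNMT1 and DNMT3B, and from the SET-domain genes KMT2E and SETD1B. Over all listed transcripts 46.1% were higher with paclitaxel and 53.9% were lower. The median difference in log2(FPKM + 1), paclitaxel minus DMSO, was 1.11 over the 10 transcripts and -1.31 over all 993. The sign of the first rested on transcripts scarce in at least 1 library: the median was -1.76 on the log2 ratio without the 3 transcripts listed at 0, and -1.61 where 1 FPKM was required in both libraries, which left DNMT1 alone. The table lists transcripts that the authors called as changed, and the smallest log2 ratio in it was 1.52 in size, so that the size of a difference says little by itself. The other 82 genes of the families had no transcript in the table and their levels were not analysed here.

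**Figure D1:**
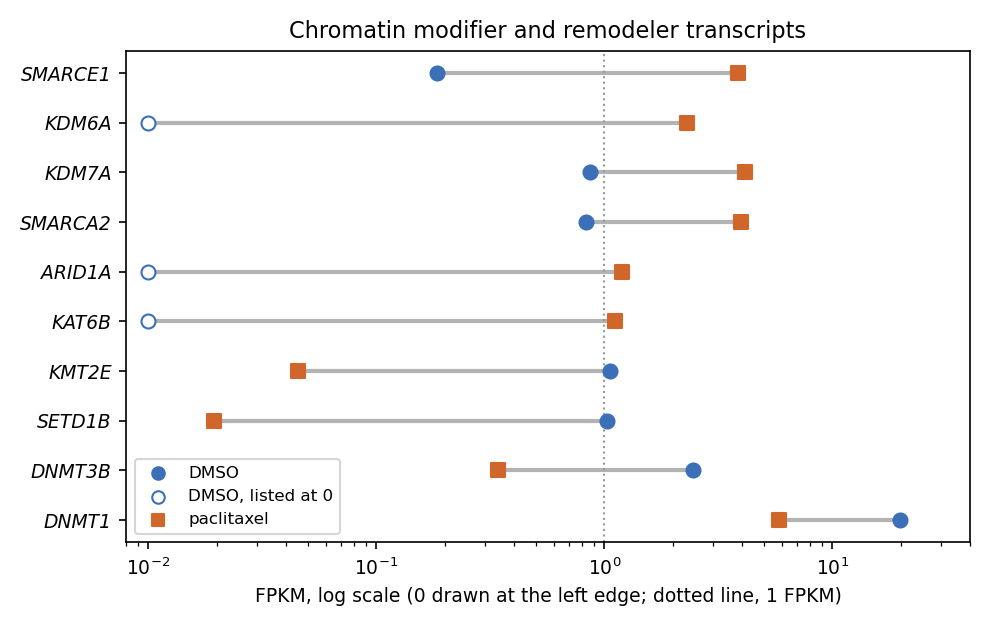
FPKM of each of the 10 listed transcripts in the DMSO library (circles) and the paclitaxel library (squares) on a log axis, 1 library per condition. Open circles mark the 3 transcripts listed at 0 with DMSO, drawn at the left edge, and only DNMT1 lay above 1 FPKM in both libraries.

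Most of these transcripts were scarce. In the library where each was higher, the median level was 2.37 FPKM, against 6.73 FPKM over the whole table. Only DNMT1 reached 1 FPKM in both libraries, 10% of the 10 transcripts against 46.9% of all. KDM6A, ARID1A and KAT6B were listed at 0 with DMSO, against 40 transcripts (4.03%) of the whole table. None of the 10 was listed at 0 with paclitaxel, which was also rare over the whole table, with 32 of 993 transcripts. A value of 0 can be a failed estimate of an isoform, so no fold was given for these 3.

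Listed isoforms of 3 SWI/SNF genes, SMARCE1, SMARCA2 and ARID1A, were higher with paclitaxel. SMARCE1, a subunit with an HMG domain that binds DNA, had a listed transcript (ENST00000580419, chr17:40627743-40647817, minus strand) at 0.184 FPKM in control cells and 3.86 FPKM after paclitaxel, a log2 ratio of 4.39 or 21.0-fold. By the size of the difference in log2(FPKM + 1), it ranked 405 of 993, the highest rank of the 10. SMARCA2, the ATPase also called BRM, had a listed transcript (ENST00000357248, chr9:2015186-2193620, plus strand) at 0.829 FPKM in control cells and 3.96 FPKM after paclitaxel, a log2 ratio of 2.25. ARID1A, the subunit with the AT-rich interaction domain, had a listed transcript (ENST00000374152, chr1:26728912-26780756, plus strand) at 0 with DMSO and 1.19 FPKM with paclitaxel. For all 3 the level with paclitaxel stood above the level with DMSO, and none of the 3 transcripts was the MANE Select transcript.

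The listed SWI/SNF transcripts differed from their reference transcripts in coding sequence. The SMARCA2 transcript lacked exon 29, shown above, and its coding sequence was 18 codons shorter than the reference. Exons 32 and 33 of SMARCA2 were listed as skipped too, and both were present in the listed transcript. A further listed exon of SMARCA2, of 96 nt, was in neither transcript. The SMARCE1 transcript lacked exon 4 of 11, a coding exon of 105 nt (chr17:40642455-40642559, minus strand), and had other ends in exons 1 and 11. Its coding sequence was 300 nt shorter, more than exon 4 holds, and the rest was not assigned to an exon. Exon 4 of SMARCE1 was not among the skipped exons, and the 2 exons listed for this gene, of 79 and 98 nt, were in neither transcript. The ARID1A transcript began 32897 nt downstream of the MANE Select start on chromosome 1, so that it lacked exon 1 with its 1137 coding nt. Its listed skipped exons lay elsewhere, with exons 12 and 15 of 20 (208 and 151 nt) present in the transcript and an exon of 140 nt in neither.

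The listed isoforms of the demethylases KDM6A and KDM7A were higher as well. KDM6A, also called UTX, removes the repressive methyl mark of Polycomb from histone H3, and its listed transcript (ENST00000536777, chrX:44873188-45112598, plus strand) stood at 0 with DMSO and 2.29 FPKM with paclitaxel. This transcript lacked exons 13 and 14 of 30, of 135 and 156 nt. Together they hold 291 nt or 97 codons, the whole difference in coding length from the reference. In GENCODE 44 a junction from exon 12 to exon 15 is annotated, so the loss of both exons at once is a known form. KDM6A had 7 listed exons in all, of 75 to 156 nt, and 5 of them had a length divisible by 3. KDM7A, a demethylase with a PHD finger, was at 0.866 FPKM in control cells and 4.12 FPKM after paclitaxel in its MANE Select transcript (ENST00000397560, chr7:140084746-140176983, minus strand), a log2 ratio of 2.25. It was the gene among the 10 with no skipped exon listed.

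KAT6B, the acetyltransferase also called MORF, had a listed transcript (ENST00000372724, chr10:74826449-75032279, plus strand) at 0 with DMSO and 1.12 FPKM with paclitaxel. No exon of the reference was wholly missing from it, but exon 8 of 18 had another boundary and the coding sequence was 183 codons shorter. Exons 2 and 12 of KAT6B, of 70 and 162 nt, were listed as skipped, and both were in the transcript.

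Both listed DNA methyltransferases were lower with paclitaxel. DNMT1, the maintenance enzyme, was the most abundant of the 10, with 19.8 FPKM in the DMSO library and 5.84 FPKM in the paclitaxel library, 3.39-fold lower (log2 ratio -1.76). Its listed transcript (ENST00000340748, chr19:10133346-10195135, minus strand) lacked exon 5 of 41, which was listed as skipped, and its coding sequence was 16 codons shorter than the reference. Exon 40 of 41 of DNMT1, of 91 nt, was listed as skipped too and was present in the transcript. DNMT3B, which sets new methylation, was at 2.45 FPKM in control cells and 0.341 FPKM after paclitaxel in its MANE Select transcript (ENST00000328111, chr20:32762385-32809356, plus strand), a log2 ratio of -2.85. For DNMT3A, a relative of DNMT3B, skipped exons were listed but no transcript.

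The SET-domain genes KMT2E and SETD1B were lower from a low level. KMT2E, also called MLL5, was at 1.06 FPKM in control cells and 0.0453 FPKM after paclitaxel (ENST00000334914, log2 ratio -4.54). This transcript is not in GENCODE 44, so its exons were not compared. For KMT2E 6 skipped exons were listed, of 57 to 141 nt, 3 of them in the MANE Select transcript. SETD1B, a methyltransferase of a COMPASS complex, was at 1.02 FPKM in control cells and 0.0194 FPKM after paclitaxel in its MANE Select transcript (ENST00000604567, chr12:121804009-121832656, plus strand), a log2 ratio of -5.73. Its ratio was the largest in size of the 7 that could be formed, yet on the log2(FPKM + 1) scale its difference was -0.99 and ranked 917 of 993. The skipped exon listed for SETD1B was exon 7 of 17, a coding exon of 825 nt whose skipping is not annotated. Both genes stood just above 1 FPKM with DMSO and far below it with paclitaxel.

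**Figure D2:**
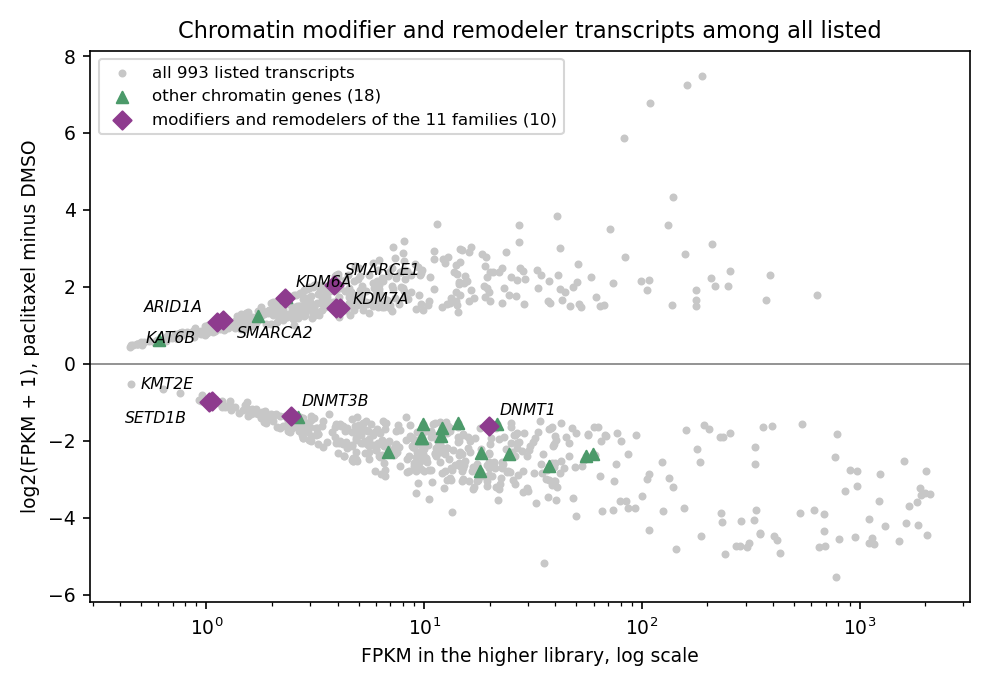
Difference in log2(FPKM + 1), paclitaxel minus DMSO, against FPKM in the higher library (log axis) for the 993 listed transcripts, with the 10 of the chromatin families as diamonds and 18 of other chromatin genes as triangles. The diamonds lie at low FPKM except DNMT1 at 19.8, and 15 of the 18 triangles lie below the line at 0.

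Of the 9 listed transcripts found in GENCODE 44, 3 were MANE Select transcripts (KDM7A, DNMT3B and SETD1B), 33.3%, against 499 of 948 (52.6%) over the whole table. The remaining 6 had a coding sequence 48 to 1149 nt shorter than their reference. Coding length was not compared for the other transcripts of the table, so this describes the 6 alone. Each row is an isoform, and the other isoforms of these genes were not analysed here, so a row does not give the level of its gene as a whole.

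**Figure D3:**
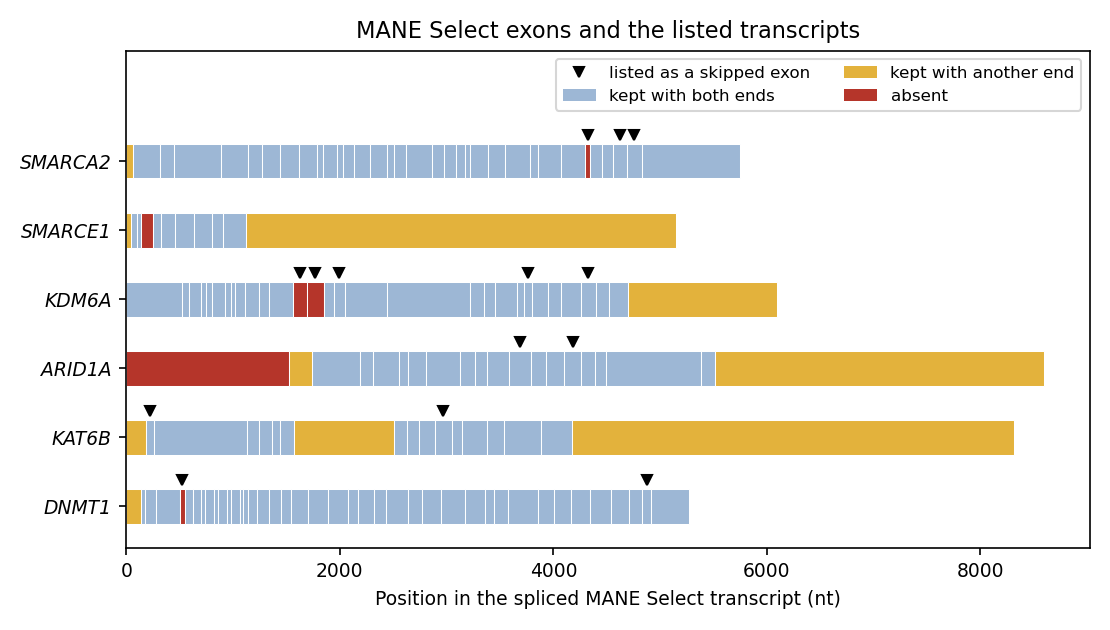
The MANE Select exons of 6 genes drawn to scale along the spliced transcript (nt) and coloured by whether the listed transcript keeps them with both ends, keeps them with another end or lacks them. Triangles mark exons of the skipped-exon table, which cover the absent exons of SMARCA2, KDM6A (both) and DNMT1 but not that of SMARCE1. The absent exon of ARID1A is the first of its reference transcript, with no upstream neighbour there, so no triangle could be expected.

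Listed transcripts of other chromatin genes, outside the 11 families, were mostly lower. A list of 178 genes of the Polycomb complexes, other histone methyltransferases and acetyltransferases, readers, histone chaperones, other remodeler subunits, corepressors and the DNA methylation machinery was drawn up. The list was made with earlier results of these data known, so its direction is not independent of them. Of these genes, 16 had a listed transcript, 3 higher and 13 lower. For scale, 812 genes were listed in all, beside 19061 protein-coding genes in GENCODE 44. Neither the list nor the 19061 was limited to genes expressed in these cells. Of the 18 transcripts of the 16 genes, 3 were higher (16.7%), against 46.1% over the whole table. Their median difference in log2(FPKM + 1) was -1.91.

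Of the 12 genes of the DNA methylation list 1 had a row. This gene, UHRF1, which brings DNMT1 to newly copied DNA, had 2 listed transcripts, the first at 37.4 FPKM in the DMSO library and 5.10 FPKM in the paclitaxel library, and the other at 6.80 FPKM and 0.604 FPKM. Of the 26 other remodeler subunits 2 had a row. HELLS, a remodeler needed for DNA methylation, was at 21.7 FPKM in control cells and 6.64 FPKM after paclitaxel. All 3 of these transcripts were lower with paclitaxel.

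Histone chaperones were the list with the most entries, 5 of 18 genes. All 5 were lower, beside 53.9% of all listed transcripts, and so small a count carries no test. CHAF1A and CHAF1B, which deposit histones behind the replication fork, were at 18.2 and 9.73 FPKM with DMSO and at 2.87 and 1.80 FPKM with paclitaxel. ASF1B, which hands histones to them, was at 18.0 FPKM in control cells and 1.77 FPKM after paclitaxel. HJURP, the chaperone of the centromeric histone, was at 55.2 FPKM in control cells and 9.74 FPKM after paclitaxel. ANP32E, which removes a histone H2A variant, was at 9.69 FPKM in control cells and 1.80 FPKM after paclitaxel.

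Of the Polycomb list 2 of 29 genes had a row, both lower. EZH2, the methyltransferase that writes the mark KDM6A removes, was at 2.64 FPKM in control cells and 0.388 FPKM after paclitaxel. PHF19, a reader that recruits this complex, had 2 listed transcripts, of which the more abundant was at 59.6 FPKM with DMSO (log2 ratio -2.44) and the other at 12.0 FPKM (log2 ratio -2.25). Of the 32 other histone methyltransferases and demethylases, SUV39H1 was at 12.0 FPKM in control cells and 3.13 FPKM after paclitaxel, and WHSC1 at 14.3 FPKM and 4.28 FPKM. Every transcript named in this paragraph was lower with paclitaxel.

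The acetyltransferase and reader list, with 3 of 41 genes, went in both directions. ATAD2, a bromodomain ATPase, was at 24.6 FPKM in control cells and 4.08 FPKM after paclitaxel. TRRAP, a scaffold of acetyltransferase complexes, was at 0.0382 FPKM in control cells and 0.604 FPKM after paclitaxel, and the reader ZMYND8 was listed at 0 with DMSO and 2.31 FPKM with paclitaxel. YY1AP1, the remaining gene of the remodeler list, was at 0.152 FPKM in control cells and 1.72 FPKM after paclitaxel. The 3 genes of the list that were higher (TRRAP, ZMYND8 and YY1AP1) all lay at 0.152 FPKM or lower with DMSO.

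Markers of division and of red blood cells differed between the same libraries. Of 5 markers of dividing cells 4 were listed (MKI67, TOP2A, CCNB1 and CDK1), all lower, and their summed level was 430 FPKM in control cells and 50.7 FPKM after paclitaxel. Of 6 markers of red blood cells 3 were listed, the globins HBA1, HBA2 and HBB, while HBD, ALAS2 and AHSP were not. The summed level of the 3 globins was 0.118 FPKM in control cells and 458 FPKM after paclitaxel, with HBB at 0 with DMSO. None of 9 markers of lung epithelium, 5 of immune cells and 5 of fibroblasts and endothelium was listed, so the identity of the cells could not be checked on its defining markers. The part of the dividing-cell and red-cell markers in the levels of the chromatin genes was not tested. In bulk RNA fewer cells with a transcript and less of it per cell cannot be told apart.

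The skipped-exon table was read as a catalogue of exon positions, since its read counts name a first and a second sample without a condition. It gives for each event an exon with its neighbours upstream and downstream. A listed exon is thus a position examined for skipping, not an exon shown to be skipped or changed by paclitaxel. The 392 exons of the chromatin families were spread over all 11 of them, from 9 in DNMT and 16 in KAT to 62 in CHD and 65 in KDM. Genes of the families were listed with a median of 4 distinct exons, against 2 over all genes of the table. They are also long genes: the 108 genes that carry such a symbol in GENCODE 44 have a median of 20 MANE Select exons, against 8 over 19061 protein-coding genes. Of these 108 genes 93 had a listed exon (86.1%, against 48.4% of all), counting genes listed under an older symbol. As a share of their MANE Select exons the difference was smaller, 13.3% against 10.7%. The sirtuins had the highest share, 29.7%, and the DNA methyltransferases the lowest, 7.07%. These shares count first and last exons, which lack an upstream or a downstream neighbour in that transcript. Such exons weigh more in genes with few exons, so the shares do not fully allow for exon number. Genes not expressed in these cells were not left out of the comparison with all protein-coding genes. The part of expression in these differences was not tested.

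**Figure D4:**
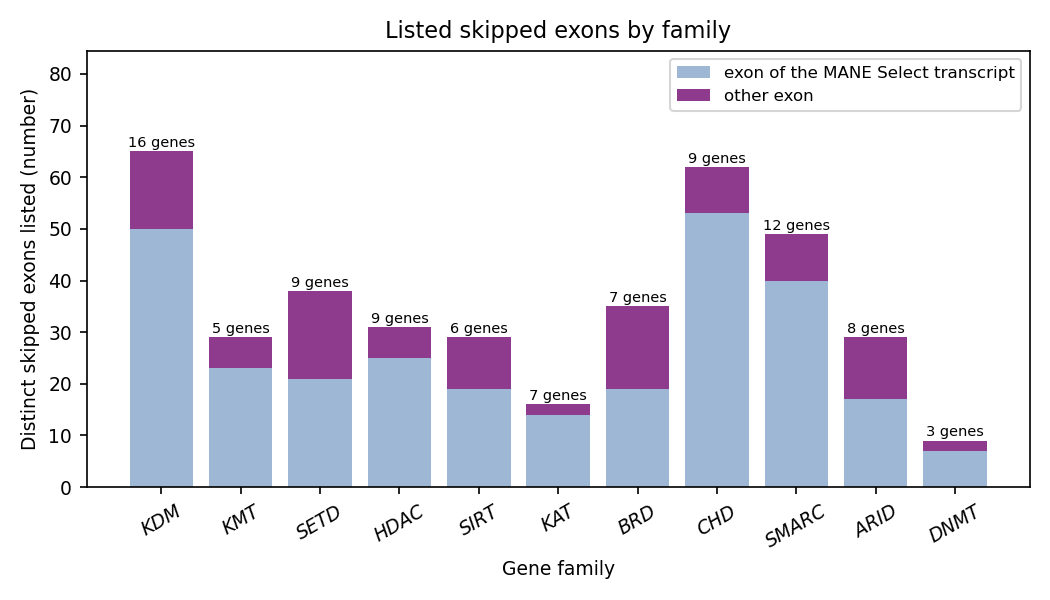
Number of distinct skipped exons listed in each family, divided into exons of the MANE Select transcript and other exons, with the number of genes above each bar. The KDM family has 65 exons in 16 genes and the DNMT family 9 exons in 3 genes.

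In each family the gene with the most listed exons was looked at. SETD5, a SET-domain protein, had 14, a number that 0.394% of the genes in the table reached. Of its exons 7 were in the MANE Select transcript, and skipping was annotated for 8. CHD3, an ATPase of the NuRD complex, had 12 exons, 10 of them in the MANE Select transcript, and skipping was annotated for 3. Over the whole table skipping was annotated for 51.7% of exons, and for 38.9% of those in a MANE Select transcript. ARID1B, the relative of ARID1A, had 9, of which 8 had a length divisible by 3. HDAC7, a class II deacetylase, also had 9, from 50 to 139 nt. BRD8, KDM3B and KMT2D had 8 each, SMARCA1 had 7, SIRT2 had 6, DNMT3B had 5 and KAT7 had 4. Of the 8 exons of KDM3B, a demethylase of the JmjC type, all were in the MANE Select transcript, and skipping was annotated for 1. Exon 8 of KDM3B is 1249 nt long.

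The exons of the families had much the same length as all others. Their median was 120.5 nt, against 121 nt over the table. Of the 392, 17 were 300 nt or longer (4.34%, against 4.96% of all) and 2 were 27 nt or shorter. The longest was exon 3 of 36 of KMT2A (chr11:118471662-118474315, plus strand), a coding exon of 2654 nt. The 3 shortest exons are printed with 10 intron bases on each side, as above, because at this length the whole exon can be read at a glance.
SETD2 exon 2 of 21, 16 nt, chr3:47126648-47126663, minus strand: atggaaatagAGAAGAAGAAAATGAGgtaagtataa
KDM5A, not in the MANE Select transcript, 27 nt, chr12:387248-387274, minus strand: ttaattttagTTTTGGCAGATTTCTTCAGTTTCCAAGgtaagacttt
SMARCA1 exon 13 of 25, 36 nt, chrX:129493040-129493075, minus strand: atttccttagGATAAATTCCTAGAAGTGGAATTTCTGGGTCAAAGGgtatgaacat
The 16 nt of SETD2, which encodes a methyltransferase bound to elongating polymerase, are not divisible by 3. The exons of KDM5A, a demethylase, and SMARCA1, the ATPase also called SNF2L, have lengths divisible by 3. For all 3 a GENCODE transcript is annotated that joins the neighbours directly.

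More of these exons were coding than over the whole table. In at least 1 GENCODE 44 transcript 315 of 392 (80.4%) were coding along their whole length, against 71.5% of all exons. A further 41 (10.5%, against 12.1%) were partly coding, and 35 (8.93%, against 16.2%) lay in no coding sequence. The remaining exon, 168 nt in ARID1B, was not in GENCODE 44. Of the 392, 288 (73.5%) were exons of the MANE Select transcript of their gene, against 68.8% of all. The comparison was not limited to protein-coding genes. The table holds 9906 gene symbols, while 9217 protein-coding genes with a MANE Select transcript had a listed exon. Exons of noncoding genes can be neither coding nor MANE Select, and their part in these differences was not tested. A direct junction between the neighbours was annotated for 201 (51.3%, against 51.7%), so for the rest no GENCODE transcript joins the neighbours.

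Whether leaving out a coding exon keeps the reading frame depends on its length. Lengths divisible by 3 were found in 179 of 392 exons (45.7%), against 41.1% over the table. Both counts include exons in no coding sequence. Among exons coding along their whole length the share was 153 of 315 (48.6%), against 44.4%. Among exons of the MANE Select transcript the share was 44.4%, against 43.1%, and among other exons it was 49.0% (51 of 104), against 36.6%. By family it was highest in SMARC, with 30 of 49 exons (61.2%), in ARID, with 17 of 29 (58.6%), and in KAT, with 9 of 16 (56.3%). It was lowest in HDAC, with 10 of 31 (32.3%), in DNMT, with 3 of 9 (33.3%), and in SETD, with 13 of 38 (34.2%). Among wholly coding exons the share was 65.9% in SMARC, 56.5% in ARID and 61.5% in KAT. On that basis it was 28% in HDAC, 37.5% in DNMT and 41.7% in SETD, the last near the 44.4% of the table. Exons of 1 gene are not independent, and these shares carry no test.

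**Figure D5:**
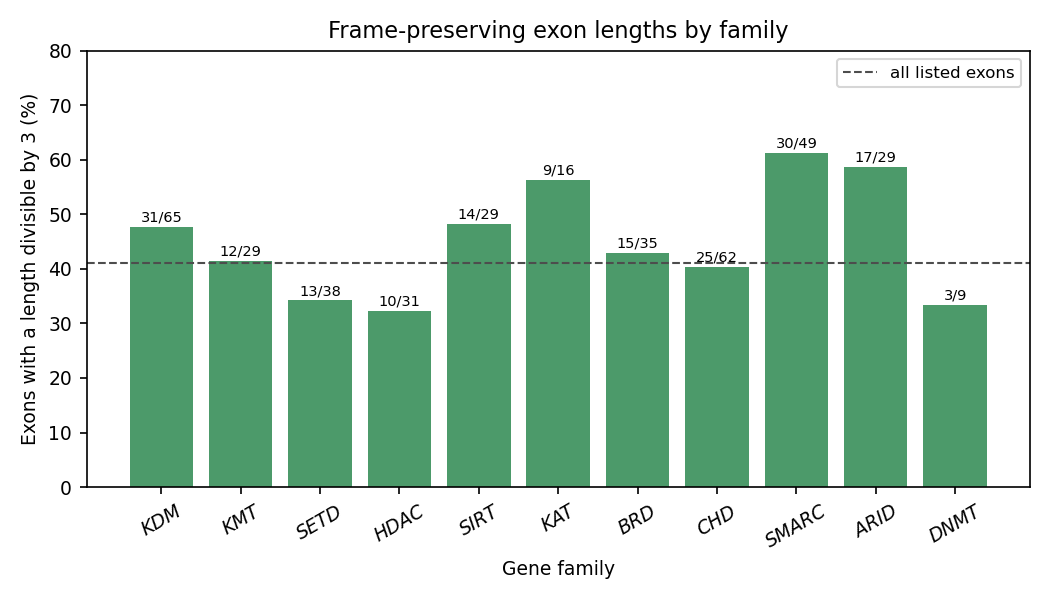
Share of listed exons whose length is divisible by 3 in each family (bars, percent, with the counts above them) and over all listed exons of the table (dashed line, 41.1%). SMARC, ARID and KAT stand above the line at 61.2%, 58.6% and 56.3%. Exons in no coding sequence are counted too.

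DNMT3B combined an expression row with a set of known isoform exons. Its 5 listed exons were exons 5, 9, 10, 21 and 22 of 23, of 126, 145, 60, 70 and 119 nt, and skipping was annotated for each. All 5 were part of the listed transcript, which stood at 2.45 FPKM in control cells and 0.341 FPKM after paclitaxel. Exons 21 and 22 encode part of the catalytic domain. Neither has a length divisible by 3, but together they hold 189 nt or 63 codons, and a junction that leaves out both is annotated in GENCODE 44. Over the 3 DNMT genes 9 of 9 exons had annotated skipping, against 51.7% of exons over the table. The 5 of DNMT3B are among these 9, and exons of 1 gene are not independent.

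Such neighbouring exons occurred in other genes too. Among the chromatin families 75 pairs of consecutive MANE Select exons, in 40 genes, were both listed. In 14 pairs (18.7%, against 20.3% over the table) neither exon was divisible by 3 but the sum was. A junction that leaves out both exons was annotated for 11 of the 75 pairs (14.7%, against 17.4%). Both features were found in 3 pairs (4%, against 4.38% over the table): exons 21 and 22 of DNMT3B, exons 10 and 11 of CHD1L, with 57 codons, and exons 15 and 16 of CHD1L, with 105 codons. In SMARCA2, exons 32 and 33 hold 276 nt or 92 codons together, and no junction leaving out both was annotated.

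Splice sites of the families were nearly all of the usual kind. Of the 392 exons 383 (97.7%, against 98.3%) lay between AG and GT, and the other 9 had GC in place of GT after the exon, as 488 exons of the table had. The GC sites are printed as 3 exon bases, the GC in capitals and 4 further intron bases, since they are a recognizable variant of the donor site.
ARID1B, 39-nt exon, chr6:156871650-156871658: ttgGCaagt
BRD9, 513-nt exon, chr5:868601-868609: cagGCaggt
BRD9, exons of 150 and 160 nt with the same donor, chr5:869239-869247: gagGCaagt
CHD1L, 163-nt exon, chr1:147264582-147264590: cagGCaagt
HDAC7, 84-nt exon, chr12:47796209-47796217: tggGCtcgg
HDAC8, 78-nt exon, chrX:72490923-72490931: cagGCaagt
SIRT7, 138-nt exon, chr17:81917824-81917832: gagGCgagt
SMARCB1, 192-nt exon, chr22:23801133-23801141: ccaGCacgt
The site in HDAC7 lies 8 bases inside exon 8 of its MANE Select transcript, so that exon 8 was listed both with 92 nt and, by this donor, with 84 nt. The shorter form has a length divisible by 3 and the longer does not.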

How the data were processed

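RNA-seq libraries came from A549 cells after 72 h in DMSO or in 7.22 nM paclitaxel, 1 per condition. The methods of the study name both poly(A) purification and removal of ribosomal RNA, mapping to hg38 with MapSplice and levels from Cufflinks, whereas TopHat, Cufflinks and CASAVA 1.8.2 appear in the processing notes of the submitters. The FPKM values per transcript were made by the authors and deposited for called transcripts only. They hold no depth. The column with the plain line name was taken as the control and the column with the added T as paclitaxel, the series having 1 treated sample. The deposited skipped-exon table is laid out like MATS output, while the study's methods name MISO. The tool's version and the choice of events are not given in the sources used here. Its 6 columns of values per library name no condition and were not used. Columns of the authors' own comparisons (fold changes, inclusion differences, p-values, q-values and FDR) were not used, and splicing events other than skipped exons were not analysed.

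Members were chosen by symbol, and the members and lists were chosen with earlier results of these data known. Log2 ratios, and log2(FPKM + 1) with a pseudocount of 1, were recomputed with Python 3.11.15 and pandas 2.3.3. The second scale understates the change of low transcripts. No filter on low values was applied. Exons were counted once per position and compared with GENCODE 44 on hg38 with pysam 0.24.0. Of all listed exons 99.9% have exactly the ends of a GENCODE 44 exon. Older symbols of the list of other chromatin genes were resolved through RefSeq synonyms. Counts were checked on simulated data. Named were every family gene and every gene of that list with a listed transcript, in each family the gene with the most listed exons, the shortest and the longest exon, and the exons of genes with a listed transcript. Of these, 1 gene of the list and 1 exon sequence are not reported here. The genes of neighbouring exon pairs, of GC sites, and the KDM5A and SMARCA1 exons were chosen after their values were seen. Alternatives were filters on FPKM, other pseudocounts, 1 transcript or exon per gene, every event, and older symbols.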

Additional observations from a re-analysis of the deposited data

How the results depend on the processing

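With 1 library per condition no replicate could be left out and no paired analysis was possible. Requiring 1 FPKM in both libraries left 0 family transcripts higher and 1 lower (DNMT1), so the count of 6 higher and 4 lower rests on transcripts that are scarce in at least 1 library. Under the same filter, 0 other chromatin genes were higher and 12 were lower. The median difference of the 10 family transcripts was 1.11 with a pseudocount of 1 and 2.13 with 0.1. It turned to -1.76 on the log2 ratio without the 3 transcripts listed at 0, and to -1.61 where 1 FPKM was required in both libraries, where DNMT1 alone remained. The direction of that median therefore depends on the transcripts listed at 0 with DMSO. Requiring 1 FPKM in the higher library, taking 1 transcript per gene or adding older symbols left the same 10 transcripts. The count of 6 higher and 4 lower could therefore not change under these settings, and they say nothing about its stability. Taking 1 exon per gene, the shortest, left 91 exons by construction, of which 47.3% had a length divisible by 3. With every event the share was 45.2% of 436, and with older symbols 45.6% of 397, against 45.7% of 392. The depth of the libraries is unknown, so the counting error of the low FPKM values cannot be given.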
